A study of Homo sapiens with 10 samples.

Results

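HRAS and 9 genes of the feedback and output layer of the RAS to ERK pathway were followed through 5 groups of IMR90 cells: HRAS, the phosphatase genes DUSP4, DUSP5 and DUSP6, the Sprouty genes SPRY2 and SPRY4, the SPRED genes SPRED1 and SPRED2, and the ETS factor genes ETV4 and ETV5. They were chosen by symbol, as a fixed set with no rule on measured values, but with earlier results of these data known. All 10 were found among the 57736 Ensembl identifiers of the count table, and all 10 were among the 16760 genes tested. IMR90 is a human diploid lung fibroblast line, and RNA-seq was done on total RNA with 2 samples in each group. The control cells received a vector retrovirus and non-targeting siRNA. The senescent control cells received a RAS retrovirus and the same non-targeting siRNA. The METTL3 knockout cells received the RAS retrovirus and siRNA against METTL3, so "knockout" is the label's word for a knockdown. Their column names add "vec", which the labels do not explain. The wild type knock-in and mutant knock-in cells received the RAS retrovirus, METTL3 siRNA and a wild type or mutant METTL3, delivered by lentivirus in the protocol. The sample labels call all of the RAS-infected groups senescent, not only the senescent control. METTL3 encodes the methyltransferase that places the N6-methyladenosine mark on messenger RNA. The protocol attached to these samples names METTL14 throughout, whereas the sample and column names say METTL3. The sources used here do not name the RAS gene, the METTL3 mutant or the promoters. Nothing in the labels says that the 2 samples of a group came from separate cultures, so the p-values below cover the spread between these particular samples, and that spread may be purely technical.

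RAS proteins pass a growth signal through the kinases RAF, MEK and ERK, and ERK then switches on genes that restrain the same pathway. The DUSP products remove phosphate from mitogen-activated kinases, the Sprouty products act near receptors and RAF, and the SPRED products bring the RAS inhibitor neurofibromin to the membrane. ETV4 and ETV5 are transcription factors of the PEA3 subfamily, commonly used as readouts of ERK signalling. Oncogenic RAS drives normal fibroblasts into a stable growth arrest, oncogene-induced senescence, in which strong feedback on the pathway has been described.

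Total counts were 16293975 to 23570266 per sample. METTL3 stood at 72.7 and 81.4 CPM (counts scaled to a common library size) in the 2 control samples, 47.3 and 57.3 in the senescent control samples and 23.2 and 28.9 in the knockout samples. Knockout was at 0.498 of the senescent control level (SE 0.15 on the log2 scale, edgeR adjusted p = 0.000872). Transcripts counted as METTL3 took 5.86% and 5.87% of all counts in wild type knock-in and 11.3% and 14.2% in mutant knock-in, so the 2 knock-ins differed in dose as well as in sequence. All 6 fibroblast markers were present in every library. Their summed level ran from 13560 to 16902 CPM in control, 9307 to 10017 in senescent control, 9695 to 10243 in knockout, 7478 to 7976 in wild type knock-in and 4869 to 5537 in mutant knock-in. Of 9 leukocyte, epithelial and endothelial markers, 8 were in the table. CD3E was at 0 counts in all 10 libraries and CDH5 in 8, and CD68, a lysosomal gene, held nearly all of the list's summed level. That sum was 67.7 to 74.6 CPM in control, 75.6 to 77.9 in senescent control, 79.2 to 80.4 in knockout, 158 to 164 in wild type knock-in and 171 to 178 in mutant knock-in. Within that list, PTPRC averaged 0 CPM in control, 0.52 in senescent control, 0.214 in knockout, 1.197 in wild type knock-in and 4.4 in mutant knock-in. LYZ averaged 1.02 CPM in control and 3.25 in mutant knock-in. Of the 4 listed markers that were tested, PTPRC, CD68 and LYZ were higher in each knock-in than in control, and EPCAM did not pass. Both marker sums, PTPRC and LYZ therefore moved between groups, and their part in the results below was not tested. These are bulk RNA levels, so a change in the number of cells expressing a gene and a change in RNA per cell cannot be told apart.

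HRAS (ENSG00000174775) encodes one of the RAS GTPases at the head of the pathway. It was counted at 14.8 and 14.6 CPM in the control samples and at 61.0 and 61.3 CPM in the senescent control samples. The knockout samples held 40.8 and 39.5 CPM, the wild type knock-in samples 48.7 and 43.4 CPM, and the mutant knock-in samples 29.8 and 23.7 CPM. No 2 groups overlapped: senescent control was highest, then wild type knock-in, knockout, mutant knock-in and control. With 2 samples in each group, a lack of overlap says little by itself. In mutant against wild type knock-in it held for 7 of the 10 genes, although only 1 gene passed the test. The share of all genes without overlap was not computed. HRAS was 4.17-fold higher in senescent control than in control (log2 change 2.06, SE 0.11, edgeR adjusted p = 4.26e-08). A retroviral RAS coding sequence, if it was HRAS, and the cell's own HRAS gene cannot be told apart in these gene-level counts. In the order of levels, the step from senescent control to wild type knock-in passed the test (edgeR adjusted p = 0.009, 0.0634 without wild type knock-in replicate 2, and 0.000287 to 0.0634 over all alternatives). The step from wild type knock-in to knockout did not pass (adjusted p = 0.190 in edgeR). Those from knockout to mutant knock-in and from mutant knock-in to control passed, with edgeR adjusted p = 0.00103 and 3.75e-05.

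**Figure D1:**
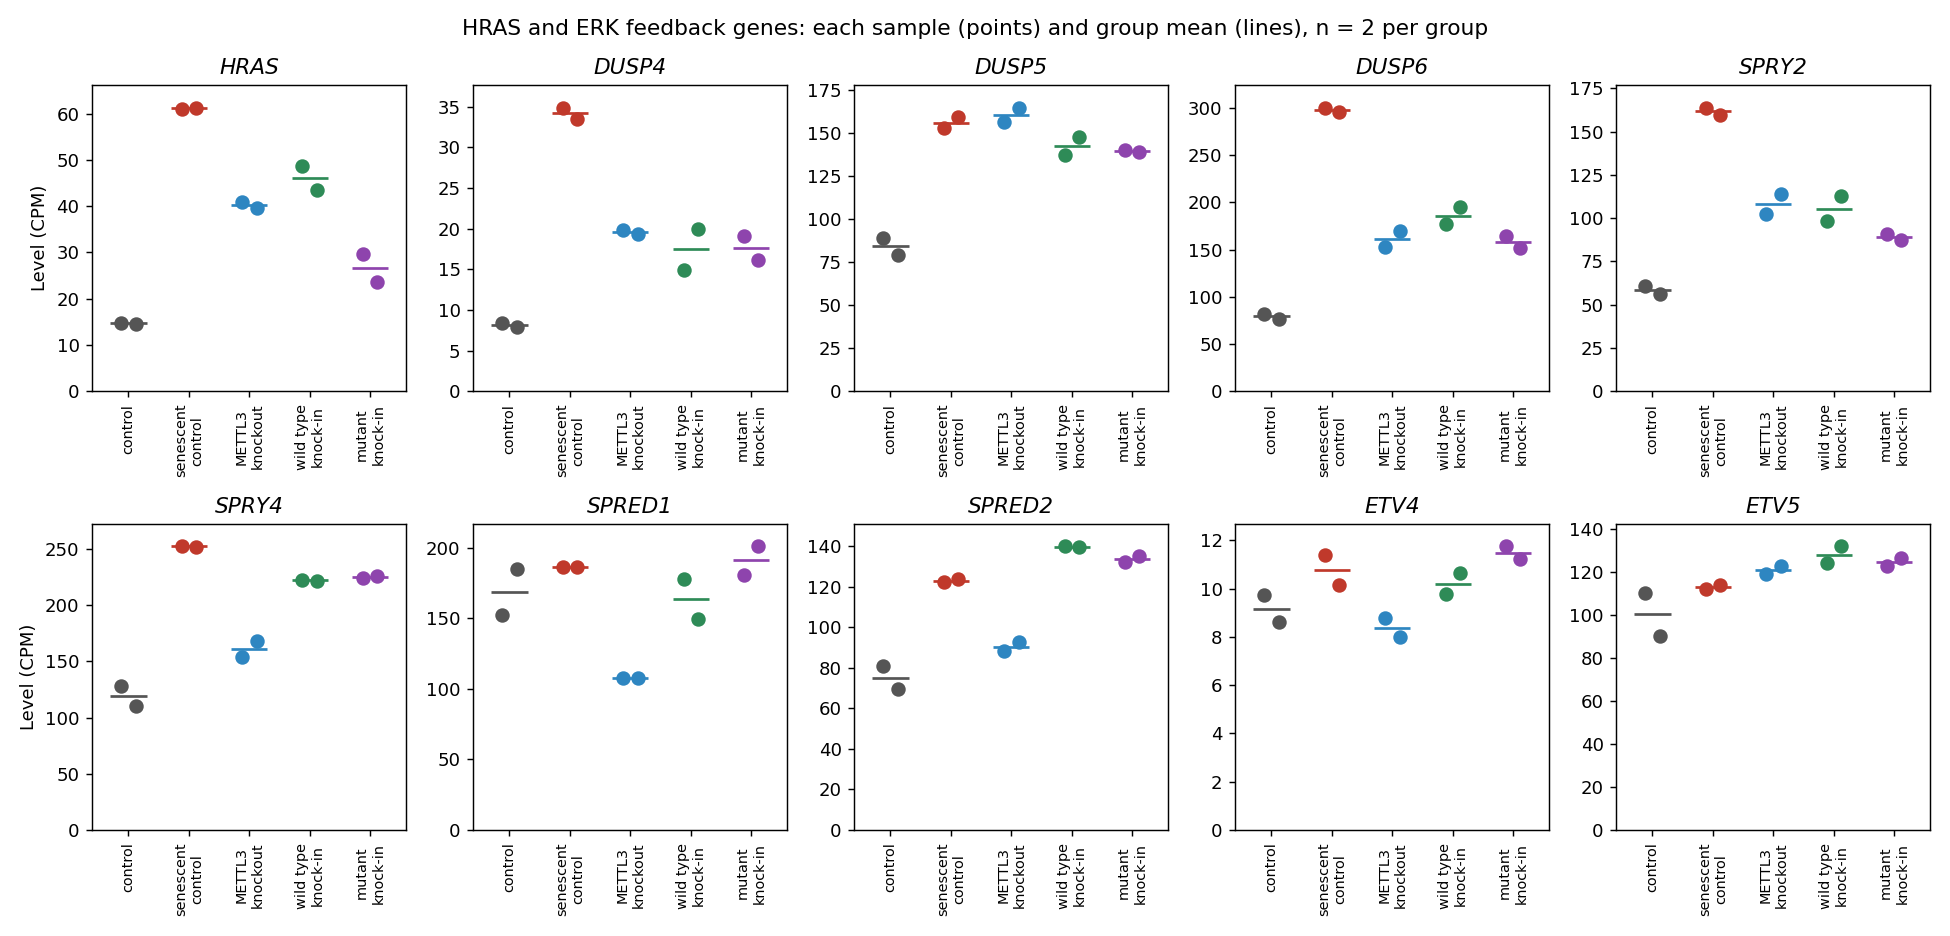
Level of each of the 10 genes in each of the 10 samples, in CPM on an axis that starts at 0, with 1 point per sample and a line at each group mean. HRAS, DUSP4, DUSP6 and SPRY2 are highest in both senescent control samples, SPRED1 is lowest in both knockout samples, and ETV4 and ETV5 lie close together across the groups.

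DUSP4 (ENSG00000120875), a nuclear phosphatase of ERK and related kinases, was counted at 8.40 and 7.93 CPM in control and at 34.9 and 33.5 CPM in senescent control. Knockout held 19.9 and 19.3 CPM, wild type knock-in 14.9 and 19.9 CPM, and mutant knock-in 19.1 and 16.2 CPM. The 3 groups with METTL3 siRNA therefore lay between control and senescent control, and both knock-ins overlapped. DUSP5 (ENSG00000138166), a nuclear phosphatase specific for ERK, was counted at 89.1 and 79.2 CPM in control and at 153 and 159 CPM in senescent control. Its knockout samples held 156 and 165 CPM, its wild type knock-in samples 137 and 148 CPM, and its mutant knock-in samples 140.3 and 139 CPM. All 8 RAS-infected samples were above both control samples, and knockout overlapped senescent control. DUSP6 (ENSG00000139318), the cytoplasmic phosphatase of ERK, was counted at 81.5 and 76.9 CPM in control and at 300.4 and 295 CPM in senescent control. It stood at 152 and 170.0 CPM in knockout, 177 and 195 CPM in wild type knock-in, and 164 and 151 CPM in mutant knock-in. As for DUSP4, every sample with METTL3 siRNA was below both senescent control samples and above both control samples.

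SPRY2 (ENSG00000136158), an inhibitor of receptor signalling to RAS, was counted at 60.7 and 56.2 CPM in control and at 164 and 159.8 CPM in senescent control. Knockout held 102 and 114 CPM, wild type knock-in 98.4 and 113 CPM, and mutant knock-in 91.1 and 87.3 CPM. It shared the order of DUSP6 at the top and bottom, with both mutant knock-in samples below the other siRNA samples. SPRY4 (ENSG00000187678), a second Sprouty inhibitor, was counted at 128 and 110.5 CPM in control and at 252 CPM in both senescent control samples. It was 154 and 168 CPM in knockout, 223 and 222 CPM in wild type knock-in, and 224 and 226 CPM in mutant knock-in. Both knock-ins thus lay between knockout and senescent control, without overlap with either. Neither differed from senescent control by the test (edgeR adjusted p = 0.140 for wild type and 0.158 for mutant knock-in).

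SPRED1 (ENSG00000166068), the gene mutated in Legius syndrome, was counted at 153 and 185 CPM in control and at 186 and 187 CPM in senescent control. Knockout held 108 CPM in both samples, wild type knock-in 178 and 149.6 CPM, and mutant knock-in 181 and 201 CPM. Both knockout samples were below the other 8, which overlapped in part. SPRED2 (ENSG00000198369), its paralog, was counted at 80.8 and 69.6 CPM in control and at 122 and 124 CPM in senescent control. It was 88.2 and 92.6 CPM in knockout, 139.9 and 139.5 CPM in wild type knock-in, and 132 and 135 CPM in mutant knock-in. Here all 4 knock-in samples were above both senescent control samples, and knockout lay just above control. Neither knock-in differed from senescent control by the test (edgeR adjusted p = 0.127 for wild type and 0.281 for mutant knock-in).

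ETV4 (ENSG00000175832) was counted at 9.72 and 8.60 CPM in control, 11.4 and 10.1 CPM in senescent control, 8.77 and 7.98 CPM in knockout, 9.76 and 10.6 CPM in wild type knock-in, and 11.7 and 11.2 CPM in mutant knock-in. ETV5 (ENSG00000244405) was counted at 110.0 and 90.3 CPM in control, 112 and 114 CPM in senescent control, 119 and 123 CPM in knockout, 124 and 132 CPM in wild type knock-in, and 123 and 126 CPM in mutant knock-in. Both spanned a narrow range, and for ETV4 no group stood clear of all the others. In the GENCODE v29 annotation ETV4 overlaps DHX8 on the opposite strand (62.8 CPM on average) and ETV5 overlaps DGKG on the same strand (3.83 CPM). SPRY4 overlaps SPRY4-AS1 (1.91 CPM). The sources used here do not say whether counting used strand, so shared reads of these pairs cannot be told apart.

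RAS infection went with higher levels of most of the feedback genes. Between senescent control and control, 7 of the 10 genes rose, none fell, and 45.0% of all genes tested changed in either direction (19.7% rose, 25.3% fell). Their log2 changes had a median of 0.99, beside -0.03 over all genes tested. The largest rises beside that of HRAS were those of DUSP4 (4.18-fold, log2 change 2.06, SE 0.14, edgeR adjusted p = 2.33e-07) and DUSP6 (3.76-fold, log2 change 1.91, SE 0.10, edgeR adjusted p = 1.98e-08). SPRY2 rose 2.77-fold (edgeR adjusted p = 2.13e-07), SPRY4 2.11-fold (edgeR adjusted p = 2.41e-06), DUSP5 1.85-fold (edgeR adjusted p = 9.23e-06) and SPRED2 1.64-fold (edgeR adjusted p = 6.18e-05). ETV4 (log2 change 0.23, SE 0.13), ETV5 (0.17, SE 0.10) and SPRED1 (0.14, SE 0.11) did not pass, with edgeR adjusted p = 0.163, 0.178 and 0.321. The outcome for SPRED1 and for ETV5 depended on which control sample was used. Without control replicate 2, SPRED1 passed at a log2 change of 0.34 and adjusted p = 0.00187 (0.00187 to 0.809 over the alternatives). Without control replicate 1, ETV5 passed at 0.34 and adjusted p = 0.000897 (0.000897 to 0.393). The 2 control samples differed more from each other than any other replicate pair, with a chi-square per gene of 38.0 beside 5.46 to 7.95.

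**Figure D2:**
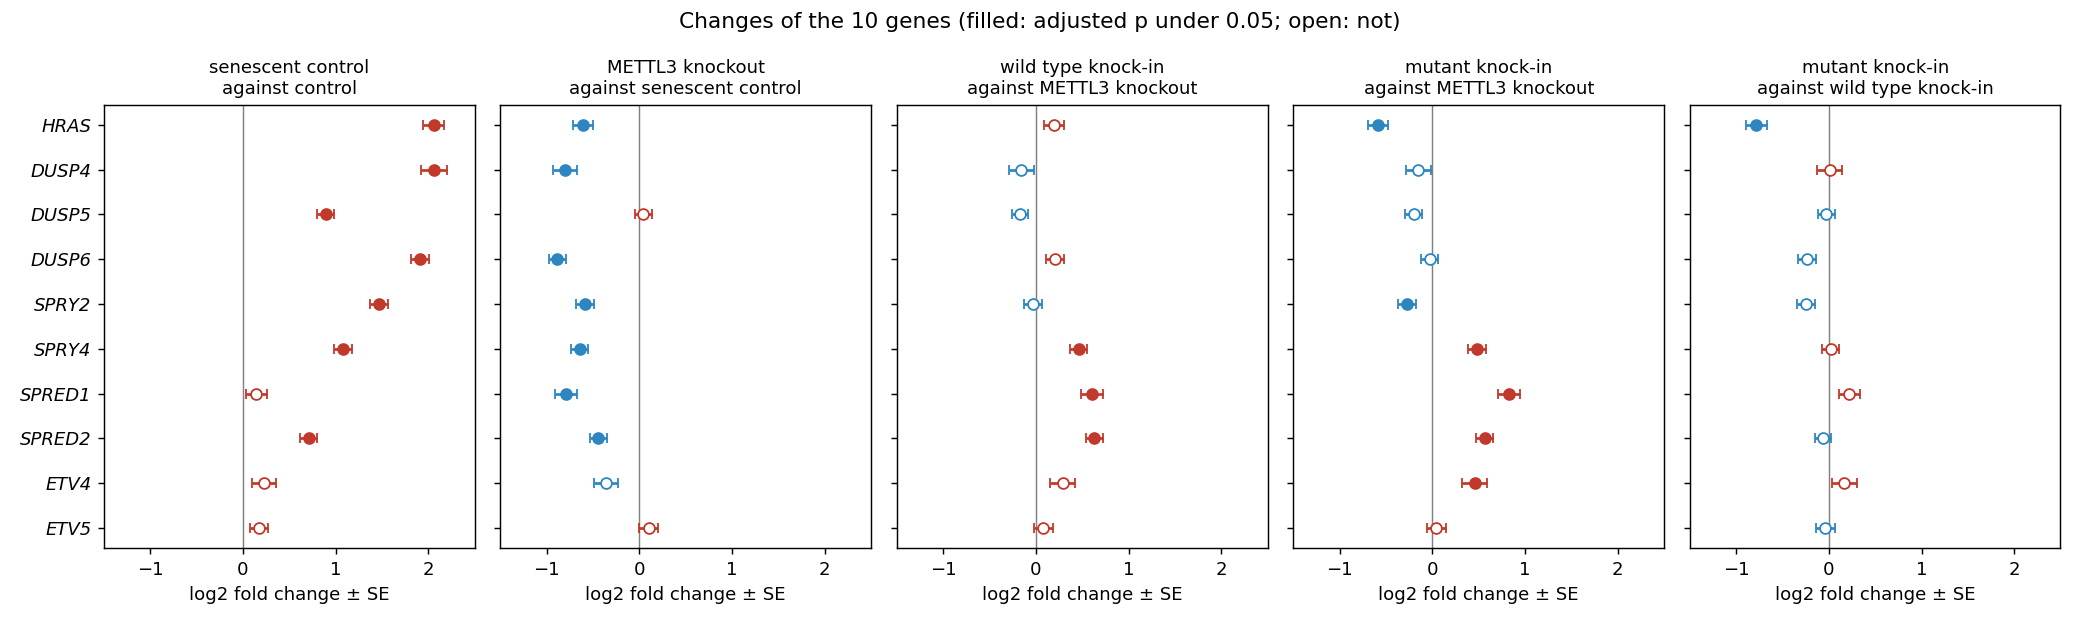
Log2 fold change of each of the 10 genes in 5 comparisons, with bars of 1 standard error and filled points where the adjusted p was under 0.05. HRAS, DUSP4 and DUSP6 lie near 2 in senescent control against control, 7 genes lie below 0 with filled points in knockout against senescent control, and HRAS alone is filled in mutant against wild type knock-in.

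The sequence upstream of the start site was looked up for genes that differed in outcome: HRAS, DUSP6 and SPRY2, which rose after RAS infection, and SPRED1, which did not pass the test. Whether the HRAS rise came from the cell's own gene, whose upstream sequence this is, or from the retrovirus cannot be told here. For SPRED1 the outcome depended on the control sample used, as given above. RefSeq promoter entries (GRCh38.p14) were used for 6 of the 10 genes. None was used for DUSP4, DUSP5, ETV4 or ETV5. The upstream sequence of DUSP4, which also rose after RAS infection, was therefore not examined. The 250 bases before the start are given 5′ to 3′ on the gene's strand, at chr11:535577-535826 (minus strand) for HRAS, chr12:89352502-89352751 (minus) for DUSP6, chr13:80341127-80341376 (minus) for the first of 3 SPRY2 starts, and chr15:38252586-38252835 (plus) for SPRED1. Capitals mark matches on either strand to the ETS motif CCGGAA, the AP-1 motif TGANTCA or the CRE motif TGACGTCA, which do not overlap one another here. GGAA without CC ahead of it, as in the DUSP6 window, was not marked.
HRAS: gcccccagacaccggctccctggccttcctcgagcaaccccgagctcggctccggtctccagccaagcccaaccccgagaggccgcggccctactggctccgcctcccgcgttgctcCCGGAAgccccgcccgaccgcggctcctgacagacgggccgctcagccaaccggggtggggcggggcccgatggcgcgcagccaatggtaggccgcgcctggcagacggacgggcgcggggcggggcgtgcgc
DUSP6: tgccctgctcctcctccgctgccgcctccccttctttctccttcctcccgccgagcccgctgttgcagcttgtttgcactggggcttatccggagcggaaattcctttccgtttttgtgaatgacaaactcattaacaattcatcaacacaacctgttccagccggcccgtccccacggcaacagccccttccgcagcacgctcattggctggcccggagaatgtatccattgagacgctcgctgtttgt
SPRY2: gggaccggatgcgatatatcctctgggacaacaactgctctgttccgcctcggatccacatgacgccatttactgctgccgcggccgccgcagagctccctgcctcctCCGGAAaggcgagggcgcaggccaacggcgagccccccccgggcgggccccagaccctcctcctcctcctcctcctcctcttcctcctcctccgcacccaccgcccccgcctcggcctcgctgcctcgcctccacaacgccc
SPRED1: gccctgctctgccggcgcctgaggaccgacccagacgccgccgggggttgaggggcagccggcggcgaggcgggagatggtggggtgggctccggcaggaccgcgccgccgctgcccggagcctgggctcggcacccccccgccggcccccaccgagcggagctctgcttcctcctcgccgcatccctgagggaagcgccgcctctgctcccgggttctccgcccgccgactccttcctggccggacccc
CCGGAA was found once in HRAS, 133 bases before the start, and once at the first start of SPRY2, 142 bases before it. For both of these starts, the bases just after the start were not found in a GENCODE v29 transcript of the gene. They were found for DUSP6, SPRED1, SPRY4, the first SPRED2 start and the last SPRY2 start, none of which held a match. The remaining SPRED2 and SPRY2 starts had neither. It was not found in the windows of DUSP6, SPRED1, SPRY4 or SPRED2, or at the other SPRY2 starts. It occurs in 14.5% of the 35116 RefSeq promoter windows of this length. TGANTCA (6.57% of all windows) and TGACGTCA (1.65%) were found in none of the 6 genes. G and C made up 77.2% of the HRAS window, 57.2% of DUSP6, 70.4% of SPRY2 and 78.4% of SPRED1, beside a median of 58% over all windows. These matches describe letters, not binding.

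METTL3 siRNA in RAS-infected cells went with lower levels of most of these genes. Between knockout and senescent control, 7 of the 10 genes fell and none rose, while 15.8% of all genes tested changed (7.17% rose, 8.62% fell). The median log2 change was -0.59 for the 10 genes and 0.01 for all genes tested. DUSP6 fell most (log2 change -0.89, SE 0.09, edgeR adjusted p = 6.13e-05), to 0.541 of its senescent control level. DUSP4 (-0.80, SE 0.13) and SPRED1 (-0.79, SE 0.11) fell by similar amounts, with edgeR adjusted p = 0.00124 and 0.000519. SPRY4 changed by -0.65 (SE 0.09), HRAS by -0.61 (SE 0.11) and SPRY2 by -0.58 (SE 0.10), with edgeR adjusted p = 0.000546, 0.0021 and 0.00135. SPRED2 fell least, by 0.44 on the log2 scale (SE 0.09, edgeR adjusted p = 0.00541). Its call was lost without senescent control replicate 2 (adjusted p = 0.0526) and without knockout replicate 1 (0.0693, in a range of 1.17e-06 to 0.0693 over the alternatives). ETV4 (log2 change -0.36, SE 0.13, adjusted p = 0.0888), ETV5 (0.10, SE 0.10, adjusted p = 0.579) and DUSP5 (0.04, SE 0.09, adjusted p = 0.827) did not pass in edgeR. HRAS itself was lower by 0.61 in the same samples, and the part of that difference in the other genes' values was not tested.

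The knockout samples were still above control for most genes. Against control, 8 of the 10 genes were higher and SPRED1 was lower, where 46.4% of all genes tested changed (19.7% higher, 26.7% lower). HRAS was 2.74-fold, DUSP4 2.40-fold, DUSP6 2.04-fold, DUSP5 1.91-fold, SPRY2 1.85-fold and SPRY4 1.35-fold of control, with edgeR adjusted p from 2.03e-06 to 0.00271. SPRED1 was at 0.638 of control (log2 change -0.65, SE 0.11, edgeR adjusted p = 0.000721). It was thus the gene that had not passed after RAS infection alone and was below the control level once METTL3 siRNA was added. SPRED2 (log2 change 0.27, adjusted p = 0.0311) and ETV5 (0.27, adjusted p = 0.0414) were barely past the threshold in edgeR. SPRED2 lost its call without either knockout sample (adjusted p = 0.0578 and 0.119), without the low-count filter (0.108) and with only the 2 groups fitted (0.0611), in a range of 0.000197 to 0.119 over the alternatives. ETV5 lost its call without control replicate 2 (0.0512) or either knockout sample (0.0843 and 0.130), with the replicate number as a block (0.0519), without the filter (0.0937) and with only the 2 groups fitted (0.0704), in a range of 7.31e-05 to 0.130. With upper-quartile scaling, the share of higher genes among all genes called in this comparison moved from 42.5% to 53.0%.

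**Figure D3:**
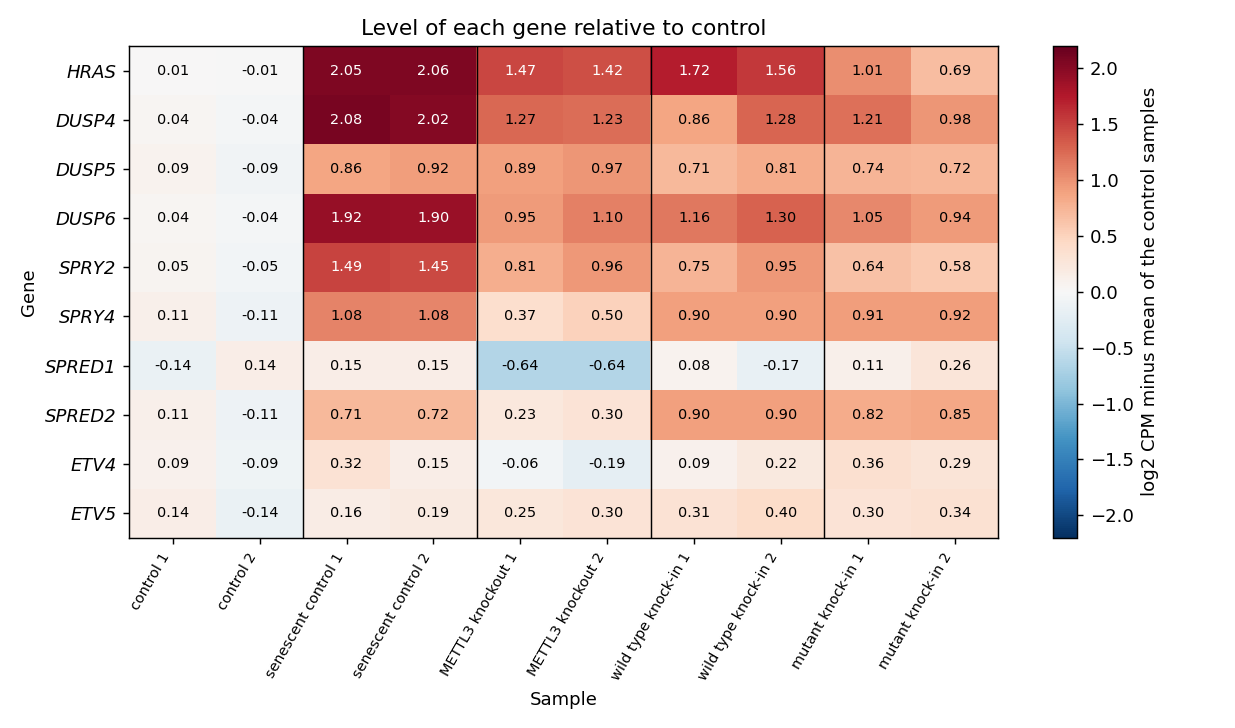
Log2 CPM of each gene in each sample minus the mean of the 2 control samples, coloured by the size and sign of the difference, with genes as rows and samples as columns. HRAS, DUSP4 and DUSP6 have their largest values in senescent control, and SPRED1 is below 0 in both knockout samples.

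Wild type METTL3 in the knockdown cells went with higher SPRY4, SPRED1 and SPRED2. Against knockout, these 3 of the 10 genes rose and none fell, while 33.3% of all genes tested changed (18.5% rose, 14.8% fell). SPRED2 rose by 0.63 (SE 0.09, edgeR adjusted p = 0.000263), SPRED1 by 0.61 (SE 0.11, adjusted p = 0.00157) and SPRY4 by 0.46 (SE 0.09, adjusted p = 0.0025) on the log2 scale in edgeR. The call for SPRY4 was lost without knockout replicate 1 (adjusted p = 0.0527, in a range of 1.84e-05 to 0.0527). DUSP6 (log2 change 0.21, SE 0.09), HRAS (0.20, SE 0.11), SPRY2 (-0.03, SE 0.10) and DUSP4 (-0.16, SE 0.14) did not pass, with edgeR adjusted p = 0.115, 0.190, 0.831 and 0.409. The remaining 3, ETV4 (0.29), ETV5 (0.08) and DUSP5 (-0.17), did not pass either.

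Set against senescent control, wild type knock-in was lower for 4 of the 10 genes and higher for none, where 39.9% of all genes tested changed (20.8% higher, 19.1% lower). The 4 were DUSP4 (log2 change -0.96, SE 0.13, edgeR adjusted p = 0.000134), DUSP6 (-0.68, SE 0.09, adjusted p = 0.000144), SPRY2 (-0.62, SE 0.10, adjusted p = 0.000344) and HRAS (-0.41, SE 0.11, adjusted p = 0.009). SPRY4 (-0.18), SPRED1 (-0.19) and SPRED2 (0.18) did not pass, with edgeR adjusted p = 0.140, 0.216 and 0.127, which does not show that they were equal to senescent control. This comparison and the one with knockout share the wild type knock-in samples. Against control, wild type knock-in was higher for 8 of the 10 genes, with 59.9% of all genes tested changed (29.7% higher, 30.2% lower). SPRED1 (log2 change -0.04, adjusted p = 0.760) and ETV4 (0.16, adjusted p = 0.309) did not pass in edgeR. Of the 8, ETV5 (0.35, edgeR adjusted p = 0.00892) lost its call without wild type knock-in replicate 2 (0.0637) and with only the 2 groups fitted (0.0722), in a range of 7.89e-06 to 0.0722 over the alternatives.

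Mutant METTL3 went with changes in both directions. Against knockout, 4 of the 10 genes rose and 2 fell, while 48.4% of all genes tested changed (24.1% rose, 24.3% fell). The median log2 change was 0.01 for the 10 genes and for all genes tested. The genes that rose were SPRED1 (log2 change 0.83, SE 0.11, edgeR adjusted p = 0.000102), SPRED2 (0.56, SE 0.09, adjusted p = 0.000312), SPRY4 (0.48, SE 0.09, adjusted p = 0.00116) and ETV4 (0.46, SE 0.13, adjusted p = 0.0139). HRAS fell (-0.59, SE 0.11, edgeR adjusted p = 0.00103), as did SPRY2 (-0.28, SE 0.10, adjusted p = 0.033). The call for ETV4 was lost without knockout replicate 2 (adjusted p = 0.135), without mutant knock-in replicate 1 (0.0818) or 2 (0.0677) and with DESeq2 (0.0606), in a range of 0.00438 to 0.135. That for SPRY2 was lost without knockout replicate 2 (0.188), without mutant knock-in replicate 1 (0.0787) or 2 (0.0863) and with upper-quartile scaling (0.0758), in a range of 0.00157 to 0.188. DUSP5 (-0.20), DUSP4 (-0.15), ETV5 (0.04) and DUSP6 (-0.03) did not pass, with edgeR adjusted p = 0.0846, 0.393, 0.754 and 0.813.

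The knock-ins were also compared directly. Between mutant and wild type knock-in, HRAS was the 1 gene of the 10 that changed, while 12.5% of all genes tested changed (5.16% rose, 7.39% fell). It was lower in the mutant by 0.78 on the log2 scale (SE 0.11, edgeR adjusted p = 0.00229), at 0.581 of its wild type knock-in level. The call held in 11 of 11 alternatives, with adjusted p from 8.54e-10 to 0.0483. The other 9 genes had log2 differences from -0.24 (SPRY2, SE 0.10, edgeR adjusted p = 0.119) to 0.22 (SPRED1, SE 0.11, adjusted p = 0.216), and DUSP6 stood at -0.24 (SE 0.09, adjusted p = 0.118). At an unadjusted p under 0.05, 3 of the 10 genes passed. The share of all genes passing at that level was not computed, so this count has nothing to be read against. With upper-quartile scaling, the share of higher genes among all genes called in this comparison moved from 41.1% to 57.7%. The METTL3 share of counts and the fibroblast marker sum also differed between the knock-ins, as given above, and their part in the HRAS difference was not tested.

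Against senescent control, mutant knock-in was lower for 4 of the 10 genes and higher for none, where 53.3% of all genes tested changed (27.0% higher, 26.3% lower). The 4 were HRAS (log2 change -1.19, SE 0.11, edgeR adjusted p = 3.77e-06), DUSP4 (-0.95, SE 0.13, adjusted p = 8.33e-05), DUSP6 (-0.92, SE 0.09, adjusted p = 8.31e-06) and SPRY2 (-0.86, SE 0.10, adjusted p = 1.67e-05). They were also the 4 that were lower in wild type knock-in, and both comparisons share the senescent control samples. Against control, mutant knock-in was higher for 9 of the 10 genes, where 68.2% of all genes tested changed (33.7% higher, 34.4% lower), and SPRED1 did not pass (log2 change 0.18, edgeR adjusted p = 0.176). SPRED1 passed with upper-quartile scaling (0.0218) and without control replicate 2 (0.00122), in a range of 0.00122 to 0.753. Of the 9, ETV4 (0.33, edgeR adjusted p = 0.0412) lost its call without control replicate 2 (0.147), without mutant knock-in replicate 1 (0.185) or 2 (0.106), with DESeq2 (0.103), without the filter (0.227) and with only the 2 groups fitted (0.0911), in a range of 0.00825 to 0.227. ETV5 (0.31, edgeR adjusted p = 0.0143) lost it without mutant knock-in replicate 1 (0.0590) or 2 (0.0935), without the filter (0.0718) and with only the 2 groups fitted (0.0740), in a range of 2.14e-05 to 0.0935.

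The order of levels across the groups differed from gene to gene. For DUSP4, DUSP6 and SPRY2, senescent control was highest and control lowest, and in each case both outer steps passed the test. The outer steps had edgeR adjusted p = 0.00124 and 4.01e-05 for DUSP4, 0.000144 and 2.1e-06 for DUSP6, and 0.00135 and 0.000149 for SPRY2. The steps between neighbours among the 3 siRNA groups did not pass (edgeR adjusted p = 0.115 to 0.977). For SPRY2, mutant knock-in and knockout are not neighbours in this order, and that comparison passed, as given above with its lost calls. For SPRY4, the steps from senescent control to mutant knock-in and on to wild type knock-in did not pass (edgeR adjusted p = 0.158 and 0.918), and the steps down to knockout and then to control passed (0.0025 and 0.00271). For SPRED2, wild type knock-in was highest, and its steps to mutant knock-in (adjusted p = 0.691) and on to senescent control (0.281) did not pass in edgeR. Its steps down to knockout (0.00541) and control (0.0311) passed. For SPRED1, the steps among the 4 groups led by mutant knock-in did not pass (edgeR adjusted p = 0.321 to 0.812), and the step down to knockout passed (0.00157). For DUSP5, the step from mutant knock-in down to control passed (edgeR adjusted p = 1.86e-05). No step passed for ETV4 (0.309 to 0.693) or ETV5 (0.178 to 0.841).

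The spread between replicates differed among the groups and was smallest by its median in senescent control. The coefficient of variation of the 10 genes' CPM had a median of 1.32% in senescent control, 3.16% in mutant knock-in, 3.61% in knockout, 6.54% in wild type knock-in and 8.48% in control. The largest values were 20.1% for DUSP4 in wild type knock-in and 16.1% for HRAS in mutant knock-in. With 2 samples each of these is imprecise.

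Around these genes, 55 other genes of the pathway were counted in 7 lists, of which 54 were tested. In senescent control against control 16 rose and 9 fell, and in knockout against senescent control 4 rose and 13 fell. In wild type knock-in against knockout 9 rose and 9 fell, in mutant knock-in against knockout 15 rose and 17 fell, and in mutant against wild type knock-in 4 rose and 4 fell. Over all genes tested, 45.0%, 15.8%, 33.3%, 48.4% and 12.5% changed in these comparisons, in the same order. The counts here and those of each list below are to be read against these shares. Whether they differ from them was not tested.

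Among the 11 other ERK output genes, 6 rose and 2 fell in senescent control against control, with a list median of 0.30 beside -0.03 over all genes. IER3, an immediate early gene, rose from 54.9 to 189 CPM (log2 change 1.78, SE 0.14, edgeR adjusted p = 9.24e-07), and LIF, a cytokine of the interleukin-6 family, from 33.1 to 112 CPM (1.76, SE 0.13, adjusted p = 4.91e-07). In knockout against senescent control 6 of the 11 fell and none rose, with a list median of -0.46 beside 0.01. IER3 fell to 50.4 CPM (log2 change -1.90, SE 0.14, edgeR adjusted p = 3.87e-06) and LIF to 41.5 CPM (-1.43, SE 0.13, adjusted p = 1.75e-05). Both comparisons share the senescent control samples. In wild type knock-in against knockout 3 of this list rose and 2 fell, and in mutant knock-in against knockout 3 rose and 5 fell. SPHK1, a sphingosine kinase, rose in both (log2 change 1.32 and 1.86, edgeR adjusted p = 1.82e-05 and 6.99e-07). EPHA4, an ephrin receptor, fell in the first (-0.64, edgeR adjusted p = 0.000238), and CCND1, which encodes cyclin D1, fell in the second from 3881 to 2128 CPM (-0.87, edgeR adjusted p = 1.61e-05).

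Of 8 RAF, MEK and ERK genes, 1 rose and 2 fell in senescent control against control, and 3 fell in knockout against senescent control. MAPK3, which encodes ERK1, fell in mutant knock-in against knockout (-0.66, SE 0.10, edgeR adjusted p = 0.000158). Of 5 other RAS genes, 2 fell after RAS infection, MRAS by 0.58 on the log2 scale (SE 0.10, edgeR adjusted p = 0.000501), 2 rose in knockout, and 4 fell in mutant knock-in against knockout.

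Of 7 receptor adaptor and exchange factor genes, 2 rose after RAS infection. SOS1, an exchange factor that loads RAS with GTP, rose by 0.69 on the log2 scale (SE 0.13, edgeR adjusted p = 0.00123). In knockout against senescent control 1 fell, the adaptor gene SHC1 (-0.58, SE 0.09, edgeR adjusted p = 0.000677), and in mutant knock-in against knockout 2 rose and 2 fell, GRB2 among the latter (-0.59, SE 0.09, edgeR adjusted p = 0.000205). Of 7 RAS GTPase-activating protein genes, which switch RAS off, 4 rose and 1 fell after RAS infection. RASA2 rose from 45.7 to 94.0 CPM (log2 change 1.04, SE 0.16, edgeR adjusted p = 0.00046) and fell to 49.8 CPM in knockout (-0.92, SE 0.16, adjusted p = 0.00317).

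Of 10 tested paralogs, 3 rose and 1 fell after RAS infection. The 1 that fell was DUSP10, a phosphatase that prefers the stress kinases p38 and JNK, from 238 to 92.7 CPM (log2 change -1.36, SE 0.09, edgeR adjusted p = 1.51e-07). DUSP16, with a similar preference for JNK, rose in wild type (1.27, SE 0.11, edgeR adjusted p = 6.12e-06) and mutant knock-in (1.52, SE 0.11, adjusted p = 7.51e-07) against knockout. DUSP1, an immediate early phosphatase gene, fell in wild type knock-in against knockout (-0.80, SE 0.09, edgeR adjusted p = 5.96e-05). Of 6 other ETS factor genes, 1 fell after RAS infection and 2 in knockout against senescent control. ETS2 fell from 129 to 69.5 CPM in the latter (-0.89, SE 0.09, edgeR adjusted p = 6.08e-05). It then stood at 146 CPM in wild type and 157 CPM in mutant knock-in (log2 change against knockout 1.07 and 1.17, edgeR adjusted p = 7.76e-06 and 1.96e-06).

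**Figure D4:**
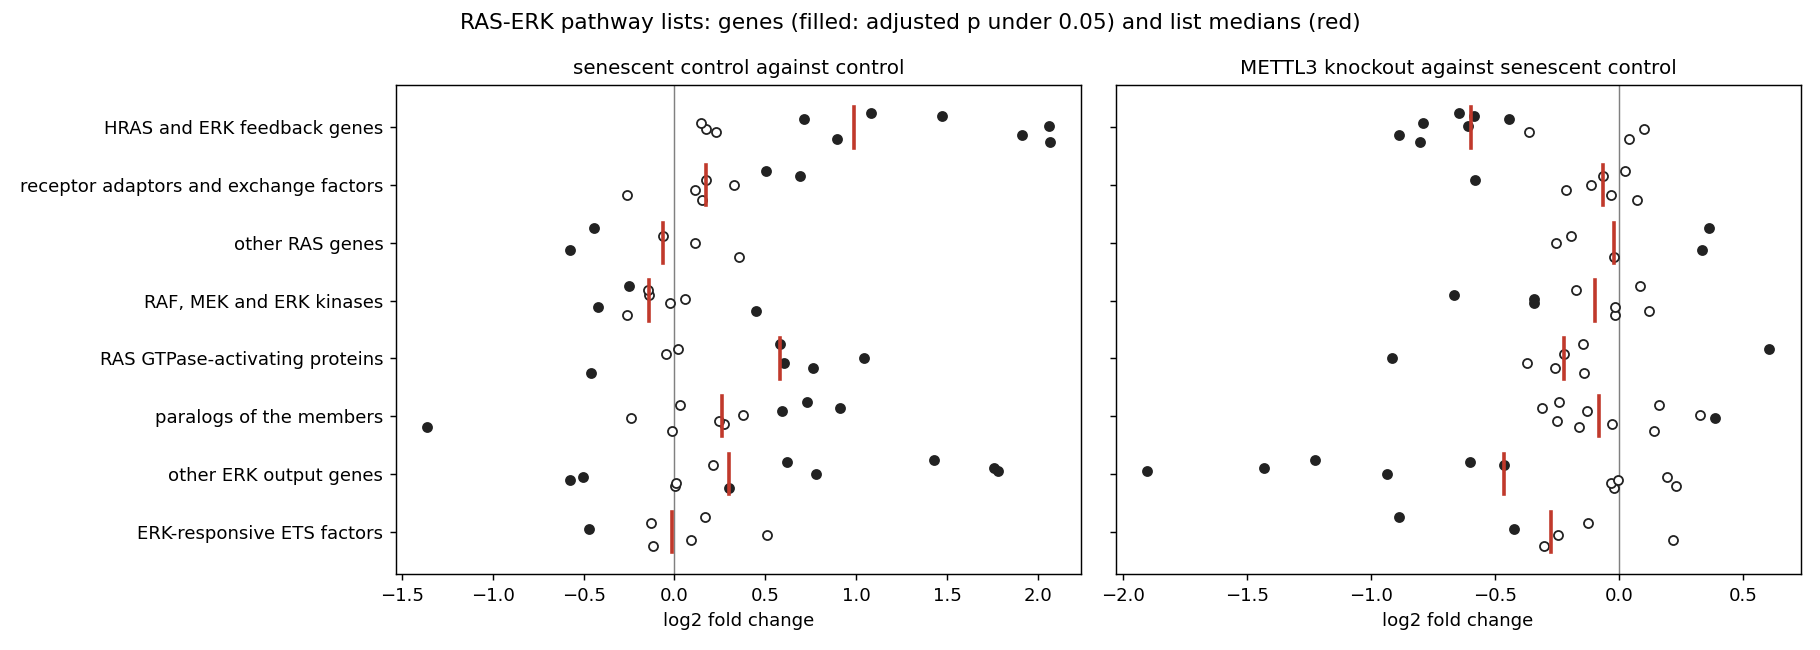
Log2 fold change (horizontal axis) of the 10 genes and of each tested gene of the 7 pathway lists in senescent control against control and in knockout against senescent control, with filled points where the adjusted p was under 0.05 and a red line at each list's median. IER3 and LIF lie furthest above 0 among the ERK output genes in the first comparison and furthest below 0 in the second.

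The genes whose log2 CPM was most like that of HRAS over the 10 samples, among 7879 genes whose group means spanned at least 1 on the log2 scale, were SERPIND1 (Pearson r = 0.974), ABCA3 (0.971), PLEK2 (0.971), RNF128 (0.969) and STC1 (0.961). SPRY2 stood at rank 8 in that order, DUSP6 at 12, DUSP4 at 50 and SPRY4 at 363. For DUSP6 the most alike were STC1 (r = 0.996), C2CD2 (0.989), FZD8 (0.989), GABRA2 (0.988) and AMPD3 (0.985), with SPRY2 at rank 8, DUSP4 at 18, HRAS at 57 and SPRY4 at 148. The other members did not reach that span. The 10 samples form 5 groups of 2, so these correlations describe group patterns and carry no test.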

How the data were processed

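RNA-seq was done on 10 samples of IMR90 cells in 5 groups of 2. The deposited table holds whole-number counts per Ensembl gene, made by the authors with RSEM 1.2.12 and Bowtie2 (version not given) on hg19, per the submitters' processing notes. No further step or filter is given in the sources used here, and RSEM's estimated counts may have been rounded. A total of 39501 identifiers matched a symbol. Depth was 16293975 to 23570266 counts per sample.

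Counts were analysed with edgeR 4.0.16 in R 4.3.3: filterByExpr (minimum count 10), TMM scaling and 1 quasi-likelihood fit with robust dispersion over all 10 samples (5 residual degrees of freedom, common coefficient of biological variation 9.22%). Two-sided tests were adjusted by Benjamini-Hochberg over all 16760 genes of each comparison, with a threshold of 0.05. CPM used TMM-scaled totals. Log2 CPM, used for likeness, added a prior count of 2. METTL3 transcripts from the lentivirus enter the totals and scaling, so 1 alternative removed them. CPM is not divided by gene length, so levels of different genes were not compared.

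Counts were simulated with 200 changed genes per comparison, picked among better-counted genes, and all others equal in every group. Their spread was the one fitted to these data. Of these, 89% of 2-fold and 99% of 4-fold changes were called in senescent control against control, with 15 false calls among 16119 genes. In knockout against senescent control the values were 93%, 99% and 15 among 16059. Many more genes were called in the data, so these rates describe the simulation only.

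Named were the 10 genes, METTL3, the 5 genes most like HRAS and DUSP6, and from each pathway list the called gene with the largest change in each of 5 comparisons (2 for lists of over 8 genes). Of 40 such list values, 12 lost their call under at least 1 alternative and are given only within the counts, and some others are not reported here. The genes and lists were chosen with earlier results of these data known. Alternatives were DESeq2 1.42.0, its size factors in edgeR, upper-quartile scaling, no filter, METTL3 removed, the 2 groups alone, the replicate block, and each sample left out. The comparisons of either knock-in with control and of mutant knock-in with senescent control, with their alternatives, were added after seeing the data.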

Additional observations from a re-analysis of the deposited data

Results flagged for a closer look

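The effect of the 2 knock-ins on HRAS differed. Against knockout, HRAS stood at a log2 change of 0.20 in wild type knock-in (adjusted p = 0.190 in edgeR) and -0.59 in mutant knock-in (edgeR adjusted p = 0.00103). The test of the difference itself, mutant minus wild type knock-in, gave -0.78 (SE 0.11, edgeR adjusted p = 0.00229), with both mutant samples (29.8 and 23.7 CPM) below both wild type samples (48.7 and 43.4 CPM). METTL3 counts, at 11.3% and 14.2% of the total in the mutant and 5.86% and 5.87% in the wild type knock-in samples, moved with this difference, and their part in it was not tested. With METTL3 removed before scaling the call for HRAS held.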

How the results depend on the processing

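For the 10 genes in 10 comparisons, 1100 alternative values were computed, of which 1025 kept direction and side of the threshold, 34 lost a call, 18 gained one and 23 changed sign, all 23 where the gene had not passed the test. DESeq2 size factors and METTL3 removal changed no call. The sources do not say that replicate numbers pair samples, and 3 of 10 group pairs had deviations correlated over 0.1 (r from -0.28 to 0.26, 9203 genes). With the replicate block, counts of the 10 genes called were 7 for senescent control against control, 7 for knockout against senescent control, 3 and 6 for wild type and mutant knock-in against knockout, 1 for mutant against wild type knock-in, 4 for wild type knock-in against senescent control and 8 for knockout against control, and no call changed apart from ETV5 in knockout against control. Fitting only the 2 groups compared moved those counts from 3 to 6 for wild type knock-in against knockout, 1 to 4 for mutant against wild type knock-in, and 4 to 7 for either knock-in against senescent control. It lowered them from 9 to 7 for knockout and for mutant knock-in against control and from 8 to 7 for wild type knock-in against control, and gave 8 in place of 7 for knockout against senescent control and 7 in place of 6 for mutant knock-in against knockout. Without 1 sample the same 7 counts ran from 7 to 8, 6 to 7, 2 to 3, 4 to 6, 1 to 1, 3 to 4 and 7 to 9. The sign changes with upper-quartile scaling were DUSP6 in mutant knock-in against knockout (0.0215), DUSP5 (0.0210) and ETV5 (0.0114) in mutant against wild type knock-in, and SPRED1 in wild type knock-in against control (0.0530). Those without the filter were ETV5 in mutant knock-in against knockout (-0.00389), DUSP4 (-0.0300) and SPRY4 (-0.0193) in mutant against wild type knock-in, and SPRED1 in mutant knock-in against senescent control (-0.0254). Those without 1 sample had these ranges: DUSP4 -0.433 to 0.0228, SPRY2 -0.180 to 0.0591 and ETV5 -0.00926 to 0.122 in wild type knock-in against knockout, DUSP6 -0.133 to 0.0169 and ETV5 -0.0407 to 0.0540 in mutant knock-in against knockout, DUSP4 -0.195 to 0.260, DUSP5 -0.100 to 0.0486 and ETV5 -0.101 to 0.0296 in mutant against wild type knock-in, SPRED1 -0.189 to 0.118 in wild type knock-in against control, and SPRED1 -0.0991 to 0.0975 and ETV4 -0.0119 to 0.152 in mutant knock-in against senescent control. Over all genes, 2646 were called in knockout against senescent control, beside 5621 with the 2 groups alone and 1198 to 1368 without 1 sample. In mutant against wild type knock-in 2103 were called, beside 4078 with the 2 groups alone and 123 to 1178 without 1 sample. Upper-quartile scaling moved the median of all genes in mutant knock-in against control from -0.0018 to 0.14. Where the knockout or control was left with 1 sample, that sample was taken to vary like the other groups. The cause of these changes was not tested. With 2 samples a group, the number of samples limits the precision.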
